A study of Homo sapiens with 10 samples.

Results

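Of the 10 arrays of the series, 8 were compared here: 4 from HEK-293 cells in which the long non-coding RNA LOC440173 was silenced, and 4 from cells that received a control siRNA. The silenced arrays comprised 2 of LOC440173 siRNA #1 and 2 of siRNA #2, both used at 10 nM. The control arrays comprised 2 of the siScramble duplex at 10 nM and 2 of the same duplex at 100 nM. All cells shared the line, the transfection with RNAiMAX and RNA isolation 48 hours after it. The other 2 arrays, from cells given a PAXIP1-AS1 siRNA at 100 nM, took no part in the separation of genes and served as a reference. The level of PAXIP1-AS1 itself was not analysed on them here. They did enter the choice of probe sets, the median level of all genes and the spread estimated by the fit, and so the calls. A gene was counted as separated when all 4 silenced arrays lay above, or all below, all 4 control arrays, and the log2 distance between the nearest arrays of both sides is called its gap. Each gene was represented by its probe set with the highest mean over the 10 arrays, which left 18404 genes. The silenced group holds 2 siRNA sequences and no more, and the sequence of the control is confidential per the labels. Silenced cells received 10 nM, while 2 of the 4 control arrays came from cells given 100 nM. The labels call the arrays of a group biological replicates without naming separate cultures, so p-values measure the spread between these samples.

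LOC440173 is the older name of LINC02893, an intergenic non-coding RNA gene. A small interfering RNA is a short duplex, and a strand of it guides an Argonaute protein to complementary RNA, which is then cleaved. Readouts in a growing line often involve the cell cycle. In the general scheme D-type cyclins with CDK4 and CDK6 drive the passage through G1, and DNA is then replicated. A late program of kinases, cyclin B and spindle proteins carries the cell through mitosis. How far HEK-293 cells depend on this scheme was not tested here. In general, the tumour suppressor p53 acts on many of these steps through the genes that it switches on. The activity of p53 itself was not measured in these cells.

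HEK-293 is a line derived from human embryonic kidney that also expresses neuronal genes. Of 15 measured genes of its marker list, 10 reached the median level of all genes (7.66, log2), among them the intermediate filaments VIM, INA and NEFL and the cadherin CDH2, while the kidney regulators PAX2, PAX8 and LHX1 were below it. Of the other marker lists, 2 of 15 kidney tubule genes, 2 of 7 podocyte genes, 0 of 13 hepatocyte genes, 0 of 9 blood genes, 1 of 14 fibroblast and endothelial genes and 1 of 10 keratinocyte genes reached it. The medians of the 10 arrays ran from 7.06 to 7.12. Both control doses were pooled, and limma called 0 of 18404 genes between them (0%, adjusted p under 0.05), with 692 at an unadjusted p under 0.05. In bulk RNA, fewer cells that express a gene and less of its RNA per cell cannot be told apart.

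The targeted transcript checked the labels. LINC02893 (gene ID 440173, probe set 8162183) stood at 8.48 and 8.60 on the arrays of the 10 nM control and at 8.50 and 8.60 on those of the 100 nM control. It stood at 7.72 and 7.43 with siRNA 1 and at 6.71 and 6.59 with siRNA 2. All 4 silenced arrays were below all controls, and both siRNA 2 arrays were below both siRNA 1 arrays. Over both siRNAs the level was 37.1% of the control (log2 difference -1.43, SE 0.070, limma adjusted p = 9.23e-06), with -0.96 for siRNA 1 and -1.89 for siRNA 2. The exact two-sided permutation test over the 8 arrays gave p = 0.0286, the smallest that 4 arrays against 4 can give. It takes the arrays as exchangeable and ignores that they are 2 each of 2 siRNAs and 2 control doses. On both arrays of the PAXIP1-AS1 siRNA LINC02893 stood at 8.54, a level inside the range of the controls.

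More genes were lower than higher with LOC440173 silenced. All 4 silenced arrays lay above all controls for 1512 genes (8.22% of those tested) and below them for 2118 genes (11.5%). The limma contrast of the mean of both siRNAs with the mean of both control doses called 2383 genes higher (12.9%) and 3518 lower (19.1%) at an adjusted p under 0.05. Both criteria were met by 1339 higher genes (7.28%) and 2004 lower genes (10.9%), and these are the genes said below to have risen or fallen. Differences were mostly small: the median gap was 0.075 among genes above and 0.11 among genes below (log2), and a change of 2-fold or more was seen in 15 risen and 60 fallen genes. Without siRNA 2 replicate 2, 2519 genes lay above the controls, against 1652 to 1951 without any other compared array. With only the 8 compared arrays in the fit, limma called 2089 genes higher and 3249 lower.

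The counts of calls depended on how the difference between the siRNAs entered the spread. The fit used the spread between arrays of a group, so its calls describe these 2 siRNAs. With the 8 arrays fitted as 2 groups of 4, which adds the difference between the siRNAs to the spread, 652 genes were called higher and 1096 lower. With the group as a random block (correlation within groups 0.492), 186 were called higher and 457 lower. That fit used a single correlation for all genes, taken from siRNA pairs and control pairs together. Genes with a larger difference between the siRNAs are corrected too little by it. A call in it is therefore not a test with the siRNAs as units. LINC02893 remained called in that last fit (adjusted p = 0.0146). For each list below, the count of members called with this block or its adjusted p for named members is therefore given as well. The shares of all genes to set beside the lists are 7.28% risen and 10.9% fallen. Against the PAXIP1-AS1 siRNA arrays they are 9.41% called higher and 15.4% lower. Many lists consist mostly of genes that reached the median level, and of all 9450 such genes 1081 rose and 1590 fell. The DNA replication, respiratory chain and autophagy and lysosome lists lay not far from those shares.

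The siRNAs themselves differed widely. Between siRNA 2 and siRNA 1, limma called 6836 genes (37.1%), with 3348 higher and 3488 lower with siRNA 2. Of the 1512 genes above the controls, 461 were among them, 285 further from the controls with siRNA 2 and 176 with siRNA 1. Of the 2118 genes below the controls, 1001 were among them, 548 further with siRNA 2 and 453 with siRNA 1. Among separated genes the 4 silenced arrays spanned a median of 0.24 (log2) and the 4 control arrays 0.13. Protein-coding genes made up 1276 of the risen and 1967 of the fallen genes, or 7.55% and 11.6% of the 16897 tested. Among 626 genes for long non-coding RNAs, 25 (3.99%) rose and 16 (2.56%) fell. How many of them reached the median level of all genes was not counted, so these shares are not matched for level.

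**Figure D1:**
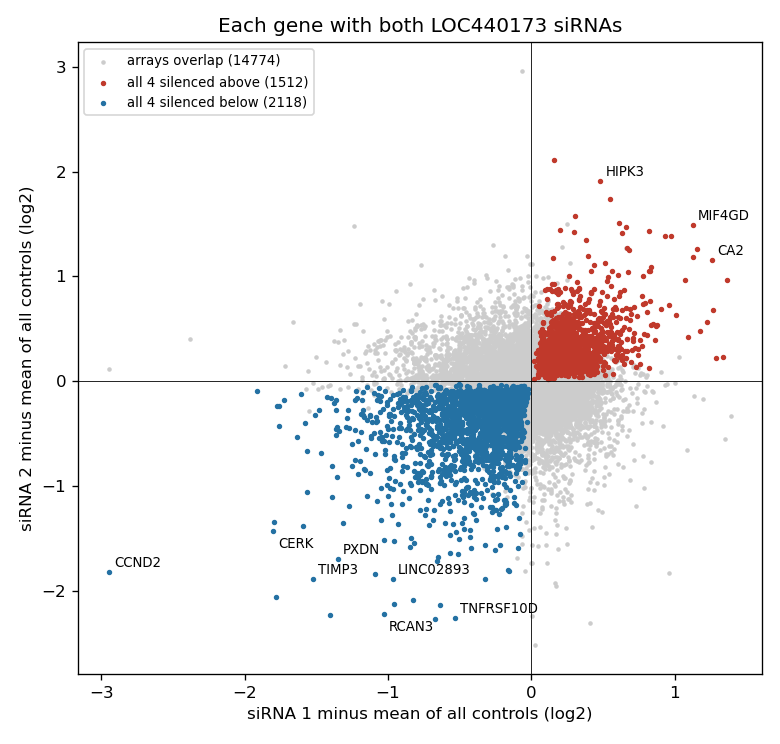
Each of 18404 genes by its log2 difference from the mean of the 4 control arrays with siRNA 1 (x axis) and with siRNA 2 (y axis), both of which share the control arrays. Red points are the 1512 genes with all 4 silenced arrays above the controls and blue points the 2118 with all below, with CCND2 at -2.95 and -1.82 and TNFRSF10D at -0.53 and -2.26.

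The widest gap of all belonged to CCND2, the D-type cyclin that activates CDK4 and CDK6. Its level was 10.05 and 10.14 with the 10 nM control, 10.20 and 10.09 with the 100 nM control, 7.21 and 7.13 with siRNA 1, and 8.23 and 8.37 with siRNA 2. The nearest arrays of both sides were 1.68 apart (log2), and the mean of both siRNAs was 19.1% of the control (difference -2.39, SE 0.049, limma adjusted p = 8.88e-07). The fall was larger with siRNA 1 (-2.95) than with siRNA 2 (-1.82). With the PAXIP1-AS1 siRNA CCND2 stood at 10.23 and 10.22, just above the highest control array. CCND2 stayed called with the group as a random block (adjusted p = 0.00297).

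Secreted and matrix proteins were among the 15 widest gaps below the controls. TIMP3, a matrix-bound inhibitor of metalloproteinases, stood at 9.33, 9.25, 9.28 and 9.29 on the control arrays, at 7.81 and 7.71 with siRNA 1 and at 7.17 and 7.63 with siRNA 2. Its mean fell by 1.71 on the log2 scale (SE 0.091, adjusted p = 1.32e-05), and the siRNA 2 arrays lay further apart than the whole control range. PXDN, the peroxidasin that crosslinks collagen IV, stood at 8.75, 8.81, 8.76 and 8.74 on the control arrays, 7.36 and 7.47 with siRNA 1 and 7.05 and 7.08 with siRNA 2. The matrix protein SPON1 (F-spondin) fell by 1.57 and the elastic fibre protein FBLN5 (fibulin-5) by 1.23. FBLN5 was the most even of these, at 7.40 and 7.45 with siRNA 1 and 7.51 and 7.50 with siRNA 2, against 8.59 to 8.76 on the control arrays.

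The other wide falls were in lipid, nucleotide and signalling genes. CERK, ceramide kinase, stood at 10.26, 10.19, 10.26 and 10.22 on the control arrays, 8.38 and 8.47 with siRNA 1 and 8.79 and 8.80 with siRNA 2, a fall to 32.6% of the control (SE 0.038 log2, adjusted p = 1.24e-06). RCAN3, a regulator of the phosphatase calcineurin, had close controls, from 8.88 to 8.93, and a wide silenced range, from 7.80 and 7.96 with siRNA 1 to 6.38 and 6.98 with siRNA 2. Each siRNA thus lowered RCAN3, by 1.03 and by 2.22 on the log2 scale in the separate contrasts. The remaining members were CCDC3 (-1.49), MMD (-1.33), the orphan receptor GPR50 (-1.31), LGR5, the R-spondin receptor and Wnt target (-1.27), TP53INP1 (-1.25), GMPR, guanosine monophosphate reductase (-1.19), the Arf GTPase regulator ADAP2 (-1.11) and the membrane-bound transcription factor CREB3L2 (-1.04).

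**Figure D2:**
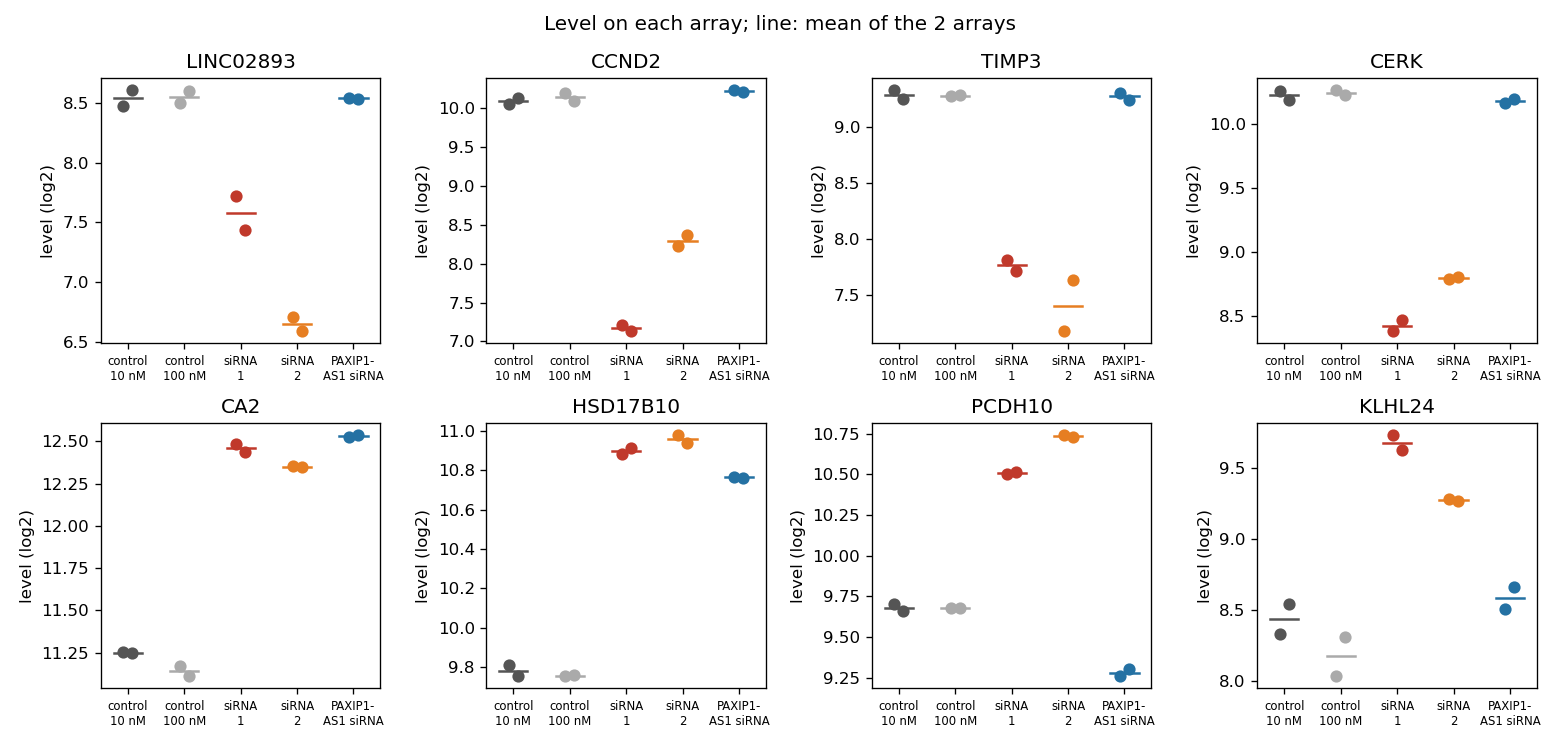
Level (log2) of 8 genes on each of the 10 arrays, by group, with a line at the mean of each pair. LINC02893, CCND2, TIMP3 and CERK lie below all controls on the 4 LOC440173 siRNA arrays and near control level with the PAXIP1-AS1 siRNA, whereas CA2 and HSD17B10 are high on all 6 siRNA arrays other than the controls. PCDH10 is high with both LOC440173 siRNAs and below the controls with the PAXIP1-AS1 siRNA. The y axes do not start at 0.

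The widest gap above the controls was that of CA2, the cytosolic carbonic anhydrase II. CA2 stood at 11.25 and 11.25 with the 10 nM control and 11.17 and 11.11 with the 100 nM control. It rose to 12.48 and 12.43 with siRNA 1 and to 12.35 and 12.34 with siRNA 2 (2.31-fold, log2 difference 1.21, SE 0.034, limma adjusted p = 1.76e-06). The arrays of the PAXIP1-AS1 siRNA were as high, at 12.52 and 12.53. Between the LOC440173 siRNAs and the PAXIP1-AS1 siRNA the difference was -0.13 (95% interval -0.22 to -0.03, adjusted p = 0.0654).

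Most of the other 14 widest rises were also high with the PAXIP1-AS1 siRNA. HSD17B10, a mitochondrial dehydrogenase that is also a subunit of mitochondrial RNase P, stood at 9.81, 9.75, 9.75 and 9.76 on the control arrays, 10.88 and 10.91 with siRNA 1, 10.98 and 10.94 with siRNA 2, and 10.77 and 10.76 with the PAXIP1-AS1 siRNA, which was lower than with LOC440173 silenced (difference 0.16, adjusted p = 0.0222). HINT2, a mitochondrial nucleotide hydrolase, ran from 9.33 to 9.38 on the control arrays and from 10.30 to 10.46 on the silenced arrays, and stood at 10.29 and 10.40 with the PAXIP1-AS1 siRNA. For these genes the control arrays stood apart from the other 6 arrays. SHMT2, the mitochondrial serine hydroxymethyltransferase, rose by 0.80 (SE 0.034, adjusted p = 5.83e-06) from a control range of 10.33 to 10.49, yet at 11.67 and 11.69 the PAXIP1-AS1 siRNA arrays were higher still. The endosomal GTPase RAB9A (0.97), the ESCRT ATPase VPS4A (0.79) and STARD3NL (0.97), a late endosomal protein, were likewise higher with the PAXIP1-AS1 siRNA than with LOC440173 silenced, by 0.47, 0.18 and 0.25 (adjusted p = 0.000808, 0.0355 and 0.0369). For HINT2, the thiolase ACAT2 (0.94), the splicing factor BCAS2 (0.76) and the translocon subunit SEC61B (0.77) the difference from the PAXIP1-AS1 siRNA missed the threshold (adjusted p = 0.817, 0.675, 0.292 and 0.132), with 95% intervals of -0.10 to 0.13, -0.20 to 0.11, -0.04 to 0.25 and -0.27 to 0.00.

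Other wide rises were larger than with the PAXIP1-AS1 siRNA. PCDH10, a protocadherin of the nervous system, stood at 9.70, 9.66, 9.68 and 9.68 on the control arrays, 10.50 and 10.51 with siRNA 1 and 10.74 and 10.73 with siRNA 2. With the PAXIP1-AS1 siRNA it stood at 9.26 and 9.30, below every control array. The difference between these silencings was 1.34 (95% interval 1.25 to 1.43, adjusted p = 5.72e-06). KLHL24, a ubiquitin ligase adaptor, ranged from 8.04 to 8.54 on the control arrays, stood at 9.73 and 9.62 with siRNA 1 and at 9.28 and 9.26 with siRNA 2, and at 8.51 and 8.66 with the PAXIP1-AS1 siRNA (difference 0.89, adjusted p = 0.000451). The ephrin receptor EPHA7 (1.18 against the controls), the endocytic adaptor FCHO2 (0.89) and MIF4GD (1.31), a partner of the histone mRNA binding protein SLBP, exceeded the PAXIP1-AS1 siRNA arrays by 0.46, 0.38 and 0.32 (adjusted p = 0.000923, 0.0264 and 0.00492). Each of these excesses was smaller than that over the controls. For EPHA7, FCHO2 and MIF4GD the mean of the PAXIP1-AS1 siRNA arrays thus also lay above the control mean. All 15 rises, the 15 falls and LINC02893 remained called with the group as a random block, with adjusted p from 0.000371 to 0.0287. The rises and falls were chosen as the widest gaps on these same arrays, so this outcome was largely set by the choice and is no separate support.

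The reference arrays thus divided the rises more than the falls. All 15 widest falls were also called lower against the PAXIP1-AS1 siRNA arrays, from -2.49 (log2) for CCND2 to -0.39 for TP53INP1. Over the whole table that contrast, in which no control array enters and the doses differ (10 nM against 100 nM), called 4559 genes (24.8%), 1732 higher (9.41%) and 2827 lower (15.4%). Without a PAXIP1-AS1 siRNA replicate the total was 2352 or 2315. Among the 1081 risen genes whose level reached that median of 7.66, 572 (52.9%) were also called above the PAXIP1-AS1 siRNA arrays, 24 below and 485 (44.9%) neither, and the median difference was 0.28 against the controls and 0.19 against those arrays. Among the 1590 fallen genes of such a level, 1188 (74.7%) were also called below, 9 above and 393 neither, with medians of -0.36 and -0.30. Both contrasts use the same 4 silenced arrays, and the genes were chosen for being extreme on them.

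**Figure D3:**
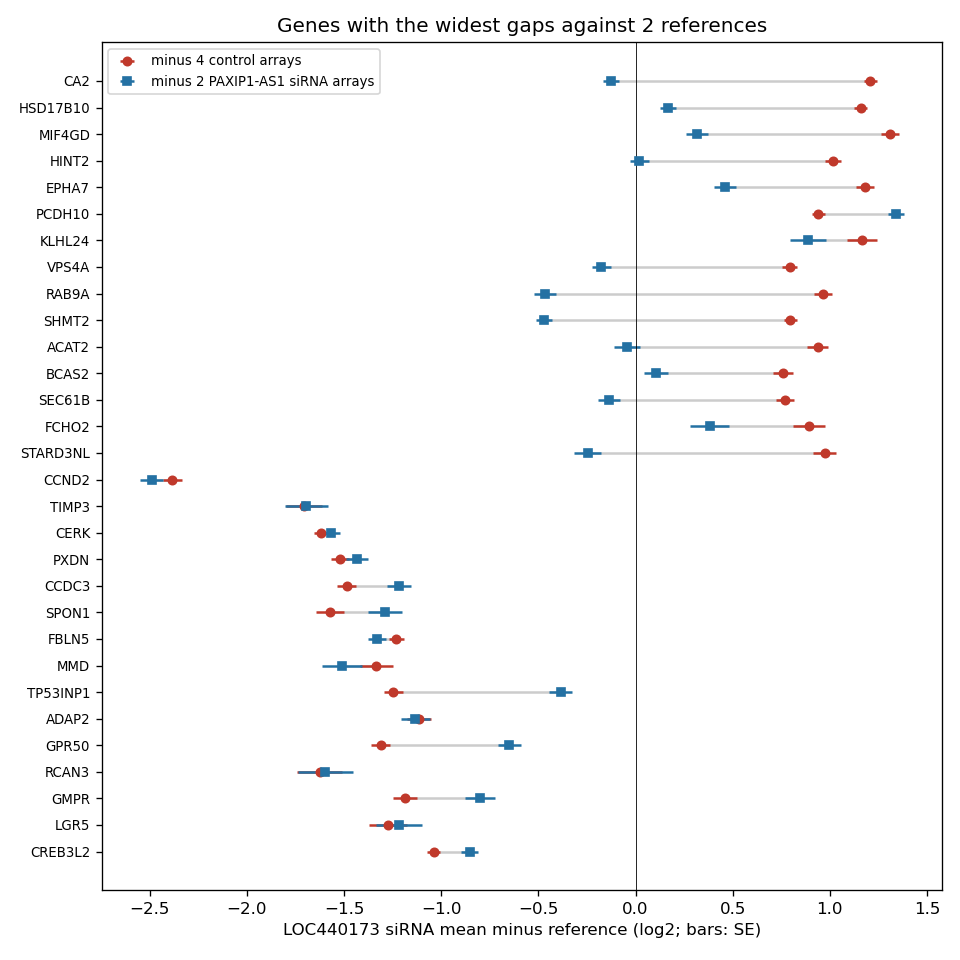
Mean of the 4 LOC440173 siRNA arrays minus the 4 control arrays (red circles) and minus the 2 PAXIP1-AS1 siRNA arrays (blue squares), in log2 with SE of the limma fit, for the 15 widest gaps above and the 15 below the controls. The markers of a fallen gene mostly lie close together (CCND2 at -2.39 and -2.49), while those of a risen gene are mostly far apart (CA2 at 1.21 and -0.13), PCDH10 being higher against the PAXIP1-AS1 siRNA (1.34) than against the controls (0.94).

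Among cell cycle genes, members of the G1 list fell and members of the mitosis list rose. Of 15 measured D-type cyclins, G1 kinases and inhibitors, 6 fell and 0 rose (median -0.07, against 0.02 for all genes): CCND2, CCND3, CDK6, CDK4, CDKN1A and RBL2. CDK6, a partner of the D-type cyclins, ranged from 8.98 to 9.16 on the control arrays and stood at 8.02 and 8.06 with siRNA 1 and 7.92 and 8.20 with siRNA 2 (limma SE 0.070, adjusted p = 3.64e-05). CDK6 fell by 1.01 with siRNA 1 and by 0.99 with siRNA 2 on the log2 scale. CCND3 fell from 9.70 to 9.78 on the control arrays to 8.54 and 8.57 with siRNA 1 and 9.25 and 9.26 with siRNA 2 (-0.84, adjusted p = 4.97e-06). The third D-type cyclin, CCND1, differed by -0.01 and was not called. CDKN1A, which encodes the kinase inhibitor p21, fell by 0.33 (adjusted p = 0.000542). CCND2, CCND3 and CDK6 made up the 3 list members called with the group as a random block, in which CDKN1A had an adjusted p of 0.0586.

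The mitosis and G2/M list ran the other way. Of 28 measured members 15 rose and 0 fell by both criteria, against 7.28% and 10.9% of all genes, and the median difference was 0.28. All 28 reached the median level of all genes, and of the 9450 genes that did so 1081 rose and 1590 fell. By limma alone 17 were called higher and 3 lower. NUSAP1, a spindle microtubule protein, stood at 10.55, 10.68, 10.55 and 10.70 on the control arrays, 11.26 and 11.17 with siRNA 1 and 11.07 and 11.30 with siRNA 2, a rise of 0.58 (SE 0.065, adjusted p = 0.000325). All 4 silenced arrays exceeded the highest control by at least 0.37, and the PAXIP1-AS1 siRNA arrays stood with the controls at 10.68 and 10.69. KIF2C, the kinesin that depolymerises microtubules at the centromere, rose from 8.86, 8.93, 8.80 and 8.90 to 9.48 and 9.39 with siRNA 1 and 9.16 and 9.26 with siRNA 2, and stood at 8.83 and 8.85 with the PAXIP1-AS1 siRNA. CCNB1, cyclin B1, rose by 0.39 (SE 0.042, adjusted p = 0.000253), by 0.48 with siRNA 1 and 0.30 with siRNA 2. CDC20, the activator of the anaphase-promoting complex, also rose by 0.39 but unevenly, to 11.83 and 11.81 with siRNA 1 and 11.44 and 11.44 with siRNA 2, against controls of 11.16 to 11.32. At 11.72 and 11.62 with the PAXIP1-AS1 siRNA CDC20 was also high there (difference from the silenced arrays -0.04, 95% interval -0.14 to 0.06, adjusted p = 0.538).

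The 3 mitotic genes called lower, named here after their values were seen, were CDC25B (-0.26), AURKA and BIRC5, and none was separated. AURKA, a spindle pole kinase, stood at 10.48 and 10.50 with siRNA 1, inside the control range of 10.36 to 10.54, and at 9.45 and 9.67 with siRNA 2. BIRC5 (survivin) stood at 10.07 on both siRNA 1 arrays, above every control, and at 8.83 and 8.85 with siRNA 2, below every control. Against the PAXIP1-AS1 siRNA arrays 5 of the 28 list members were called higher and 3 lower, and the median difference was 0.09. In the random block fit 2 of the 28 were called higher, KIF2C (adjusted p = 0.0438) and NUSAP1 (0.0249), with CCNB1 at 0.053 and CDC20 at 0.117. With 2 groups of 4 arrays 13 were called higher.

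The promoters of the mitosis list were examined for the letters of the CCAAT box, bound by NF-Y, and for TTTGAA, the cell cycle homology element of late cell cycle genes. The 4 risen members with the smallest p are printed from RefSeq (GRCh38.p14, plus strand for all), from 250 bases before to 50 after the start of the gene, with capitals marking CCAAT or TTTGAA on either strand (ATTGG and TTCAAA on the minus strand). The windows are chr15:41332631-41332930 for NUSAP1, chr1:44739587-44739886 for KIF2C, chr5:69166900-69167199 for CCNB1 and chr1:43358731-43359030 for CDC20.
NUSAP1: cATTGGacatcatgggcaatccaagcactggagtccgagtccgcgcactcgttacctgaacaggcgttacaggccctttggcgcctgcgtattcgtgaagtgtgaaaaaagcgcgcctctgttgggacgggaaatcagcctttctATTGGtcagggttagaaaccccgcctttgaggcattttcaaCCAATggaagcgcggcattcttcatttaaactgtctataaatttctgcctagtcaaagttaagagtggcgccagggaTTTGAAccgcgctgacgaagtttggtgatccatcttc
KIF2C: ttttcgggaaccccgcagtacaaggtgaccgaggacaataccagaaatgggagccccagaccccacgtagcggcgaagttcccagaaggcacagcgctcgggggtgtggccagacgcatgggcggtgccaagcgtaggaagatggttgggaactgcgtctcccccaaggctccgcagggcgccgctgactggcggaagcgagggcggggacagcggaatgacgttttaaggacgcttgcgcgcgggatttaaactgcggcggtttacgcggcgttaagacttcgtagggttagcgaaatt
CCNB1: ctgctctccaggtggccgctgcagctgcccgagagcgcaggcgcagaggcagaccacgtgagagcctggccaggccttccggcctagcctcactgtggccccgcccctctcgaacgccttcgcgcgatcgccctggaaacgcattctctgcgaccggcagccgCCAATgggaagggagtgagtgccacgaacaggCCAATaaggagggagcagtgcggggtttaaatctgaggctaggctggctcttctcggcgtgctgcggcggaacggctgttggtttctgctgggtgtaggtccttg
CDC20: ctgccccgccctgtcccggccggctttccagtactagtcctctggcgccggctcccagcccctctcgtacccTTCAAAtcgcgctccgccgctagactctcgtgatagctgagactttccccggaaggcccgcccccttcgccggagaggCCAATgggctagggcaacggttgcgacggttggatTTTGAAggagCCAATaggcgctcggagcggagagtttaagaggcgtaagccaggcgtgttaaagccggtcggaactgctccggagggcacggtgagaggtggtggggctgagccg
NUSAP1 held 3 CCAAT and 1 TTTGAA, CDC20 held 2 of each, CCNB1 held 2 CCAAT and 0 TTTGAA, and KIF2C held neither. Promoters were found for 13 of the 15 risen members: 10 (76.9%) held CCAAT and 8 (61.5%) TTTGAA, against 35.7% and 15.4% of all 27305 promoters in the table. Among all 23 measured list members with a promoter the shares were 78.3% and 56.5%, so the risen members did not stand out within their list. A match is a description of the letters and not a binding site.

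DNA replication genes went both ways, at shares not far from those of genes of similar level. Of the measured members 36 reached the median level of all genes, and of all 9450 such genes 1081 rose and 1590 fell. Of 37 measured members 4 rose and 7 fell, with 6 called higher and 16 lower by limma and a median of -0.05 (0.11 with siRNA 1 and -0.26 with siRNA 2). GINS2, a subunit of the replicative helicase, fell from a control range of 12.05 to 12.20 to between 11.41 and 11.69 (difference -0.58, SE 0.036, adjusted p = 2.23e-05), and the transcription factor E2F2 fell by 0.40 (adjusted p = 6.75e-05). The helicase partners GINS4 (-0.42) and CDC45 (-0.38) fell mostly with a single siRNA each: GINS4 by 0.70 with siRNA 2 and 0.15 with siRNA 1, and CDC45 by 0.61 with siRNA 1 and 0.15 with siRNA 2. The list members called with the random block numbered 2, both lower.

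Of 26 measured p53 target genes 17 fell and 1 rose, with 18 called lower and a median of -0.33. TP53INP1, a p53-induced regulator of autophagy and cell death, stood at 8.96, 9.11, 9.02 and 9.10 on the control arrays, 7.66 and 7.65 with siRNA 1 and 7.99 and 7.90 with siRNA 2. TNFRSF10D, a decoy receptor for the ligand TRAIL, showed the greatest contrast between siRNAs, at 8.67 and 8.71 with siRNA 1 and 7.04 and 6.88 with siRNA 2, against 9.17 to 9.29 on the control arrays. The RNA-binding protein gene ZMAT3 was the reverse, with a fall of 0.93 for siRNA 1 and 0.24 for siRNA 2. SPATA18, a mitochondrial quality control gene, fell by 0.73 (SE 0.046, adjusted p = 2.37e-05) to between 7.50 and 7.85. The only member to rise, POLH, a DNA polymerase for damaged templates, stood at 10.24, 10.22, 10.25 and 10.28 on the silenced arrays and 9.83 to 9.95 on the control arrays.

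Many p53 targets were low with the PAXIP1-AS1 siRNA as well. SPATA18 stood at 7.25 and 7.22 there, below every silenced array, and CDKN1A at 8.29 and 8.21, below its silenced range of 8.61 to 8.74. TP53INP1 stood at 8.14 and 8.23, between the silenced and the control arrays. Set against the PAXIP1-AS1 siRNA arrays, 10 of the 26 targets were called higher and 5 lower with LOC440173 silenced, and the median difference was 0.16. With the group as a random block 4 targets were called lower, among them TP53INP1 (adjusted p = 0.00114) and SPATA18 (0.00909), while TNFRSF10D (0.105) and ZMAT3 (0.11) were not. With 2 groups of 4 arrays 7 were called lower.

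**Figure D4:**
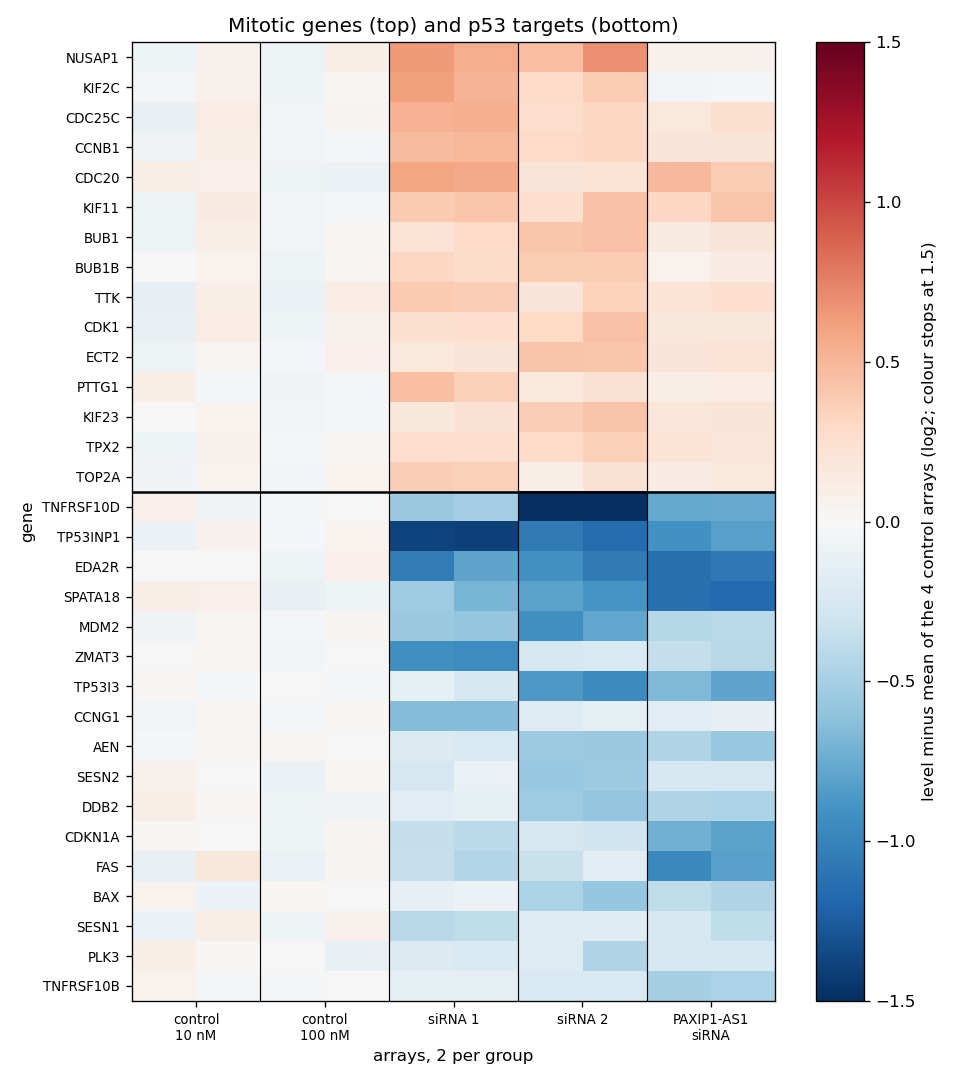
Level of each gene on each array minus the mean of the 4 control arrays (log2, red above and blue below, colour ending at 1.5) for the 15 mitotic genes that rose (top) and the 17 p53 targets that fell (bottom), arrays in columns by group. Most p53 targets are blue on the arrays of the PAXIP1-AS1 siRNA too, with SPATA18 at 7.25 and 7.22, and the darkest cells are those of TNFRSF10D with siRNA 2 and TP53INP1 with siRNA 1.

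Death receptor and BCL2 family genes gave 7 falls and 2 rises among 25 measured. Some are p53 targets too: EDA2R, a receptor of the TNF receptor family, fell from 7.55 to 7.69 on the control arrays to between 6.56 and 6.83 (-0.95, SE 0.069, adjusted p = 4.1e-05), and stood at 6.49 and 6.54 with the PAXIP1-AS1 siRNA. BCL2L1, which encodes the survival protein BCL-xL, fell by 0.58 (adjusted p = 0.000148) and stood at 8.77 and 8.82 with the PAXIP1-AS1 siRNA, within its control range of 8.76 to 8.90. The apoptosis effector BAX fell by 0.32, with differences of -0.11 for siRNA 1 (adjusted p = 0.184) and -0.53 for siRNA 2. In the random block fit 1 member, EDA2R (adjusted p = 0.00421), was called.

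Matrix, integrin and TGF-beta target genes gave 17 falls and 2 rises among 36 measured, with a median of -0.20. Beside PXDN and SPON1, FN1 (fibronectin) fell from a control range of 9.50 to 9.57 to 8.84 and 8.91 with siRNA 1 and 7.79 and 7.91 with siRNA 2 (-1.16, SE 0.042, adjusted p = 2.88e-06), and stood at 9.42 and 9.48 with the PAXIP1-AS1 siRNA. ACTA2, smooth muscle actin, fell by 0.98 but was lower still with the PAXIP1-AS1 siRNA, at 7.36 and 7.43 against 7.77 to 8.77 on the silenced arrays. The 2 rises, named after their values were seen, were LAMC1, a laminin chain (0.86), and the integrin subunit ITGAV (0.60), both larger with siRNA 2 than with siRNA 1 (1.42 against 0.30, and 0.88 against 0.33). Both were also higher with the PAXIP1-AS1 siRNA, LAMC1 at 10.21 and 10.16 and ITGAV at 9.62 and 9.66. Against the PAXIP1-AS1 siRNA arrays 15 list members were called lower and 2 higher, and 10 were called lower with the random block, in which neither LAMC1 nor ITGAV was called.

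Falls also outnumbered rises among genes of metabolism and secretion. The glycolysis and hypoxia list had 11 falls and 1 rise among 29 measured (median -0.16). PFKFB3, which sets the level of a glycolysis activator, fell evenly, to 8.38 and 8.33 with siRNA 1 and 8.22 and 8.30 with siRNA 2 from a control mean of 9.06 (-0.75, adjusted p = 9.23e-06). By contrast AK4, a mitochondrial adenylate kinase, fell by 1.73 with siRNA 1 and 0.18 with siRNA 2, and PGK1, phosphoglycerate kinase, by 0.19 and 1.13. NDRG1, a hypoxia-responsive gene, fell by 0.66 (adjusted p = 1.91e-05). Of these, PFKFB3 and NDRG1 stayed called with the random block (adjusted p = 0.00225 and 0.00544), AK4 and PGK1 did not (0.226 and 0.178), and 1 member in all was called higher and 4 lower.

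The ATF4 and amino acid list had 9 falls and 3 rises among 30 measured (median -0.18). The median was -0.34 with siRNA 1 and 0.06 with siRNA 2. SLC7A5, the large neutral amino acid transporter, fell from a control mean of 10.98 to 9.99 and 9.98 with siRNA 1 and 10.41 and 10.38 with siRNA 2 (-0.78, SE 0.032, adjusted p = 4.97e-06). SLC1A4, a neutral amino acid transporter, fell by 0.89 (adjusted p = 2.31e-05). The enzymes of serine metabolism SHMT2 and PHGDH rose, PHGDH by 0.59 (adjusted p = 2.2e-05), and PHGDH stood at 12.20 and 12.26 with the PAXIP1-AS1 siRNA, above all silenced arrays (11.65 to 12.19). With the random block 1 list member was called higher and 2 lower, and PHGDH lost its call (adjusted p = 0.0577). Both transporters stood at control level or slightly above with that siRNA, SLC7A5 at 10.99 and 11.01 and SLC1A4 at 8.30 and 8.31. Of the list, 0 members were called higher and 21 lower than in the PAXIP1-AS1 siRNA arrays (median -0.34).

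Secretory pathway genes had 11 falls and 2 rises among 28 measured (median -0.17). The translocon divided: the channel subunit SEC61A1 fell from 11.38 to 11.45 to between 10.91 and 10.96 (-0.49, SE 0.033, adjusted p = 3.31e-05), with a difference of -0.49 for each siRNA, while its small partner SEC61B rose by 0.77. XBP1, a transcription factor of the unfolded protein response, fell by 0.56 (adjusted p = 4.15e-05), by 0.57 with siRNA 1 and 0.55 with siRNA 2. The coatomer subunit COPG1 fell by 0.88 with siRNA 1 and 0.15 with siRNA 2. The random block called 1 list member higher and 4 lower, and COPG1 lost its call (adjusted p = 0.184). In the lysosome and autophagy list 6 fell and 2 rose of 28, with the lysosomal galactosidase GLA at -0.63 and the protease CTSD (cathepsin D) at -0.48, and the proton pump subunit ATP6V1A at -0.38. These 3 stayed called with the random block (adjusted p = 0.0223, 0.025 and 0.0355), and the list median was 0.02 with siRNA 1 and -0.29 with siRNA 2.

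Among 30 measured NRF2 targets and glutathione enzymes 11 fell and 0 rose (median -0.15). The median was -0.22 with siRNA 1 and 0.06 with siRNA 2. MGST1, the microsomal glutathione transferase, ranged from 8.61 to 8.99 on the control arrays, stood at 7.59 and 7.82 with siRNA 1 and lower with siRNA 2, at 6.90 on the lowest array (-1.47, SE 0.094, adjusted p = 2.58e-05), and at 8.46 and 8.51 with the PAXIP1-AS1 siRNA. GPX3, an extracellular glutathione peroxidase, fell by 0.48. The transferase GSTM2 fell by 0.20 with siRNA 1 and 1.21 with siRNA 2, and its relative GSTM3 by 0.65 and 0.20. Such relatives share sequence, so probe sets may take signal from each other. Only MGST1 and GPX3 were called with the random block (adjusted p = 0.0115 and 0.0251).

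In 4 zinc transporters of the SLC39 family the level fell, within a list of 23 measured metallothionein and zinc transporter genes with 5 falls and 1 rise. SLC39A8 fell by 0.67 (adjusted p = 2.26e-05) and SLC39A7 by 0.57 (3.52e-05). SLC39A1 illustrates the rule at its limit: at 7.54 on the lowest silenced array and 9.40 on the highest, it was separated from the controls (9.46 to 9.50) by a gap of 0.06, with differences of -1.91 for siRNA 1 and -0.09 for siRNA 2 (adjusted p = 0.22). SLC39A10 fell by 1.17 with siRNA 1 and 0.34 with siRNA 2. Here the random block called 1 list member higher and 2 lower, SLC39A8 and SLC39A7 (adjusted p = 0.0122 and 0.0412), while SLC39A1 (0.285) and SLC39A10 (0.091) lost their calls.

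The cholesterol and fatty acid synthesis list depended on the criterion. Of 20 measured members 4 fell and 0 rose by both criteria, but limma alone called 8 higher and 5 lower, with a median of -0.02. SQLE, squalene epoxidase, had differences of -1.06 for siRNA 1 and -0.14 for siRNA 2, the latter missing the threshold (adjusted p = 0.0517). LSS (-0.53), ACLY (-0.25) and DHCR7 (-0.18) were the other falls. In the random block fit the adjusted p was 0.149 for LSS, 0.208 for SQLE, 0.209 for ACLY and 0.304 for DHCR7.

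**Figure D5:**
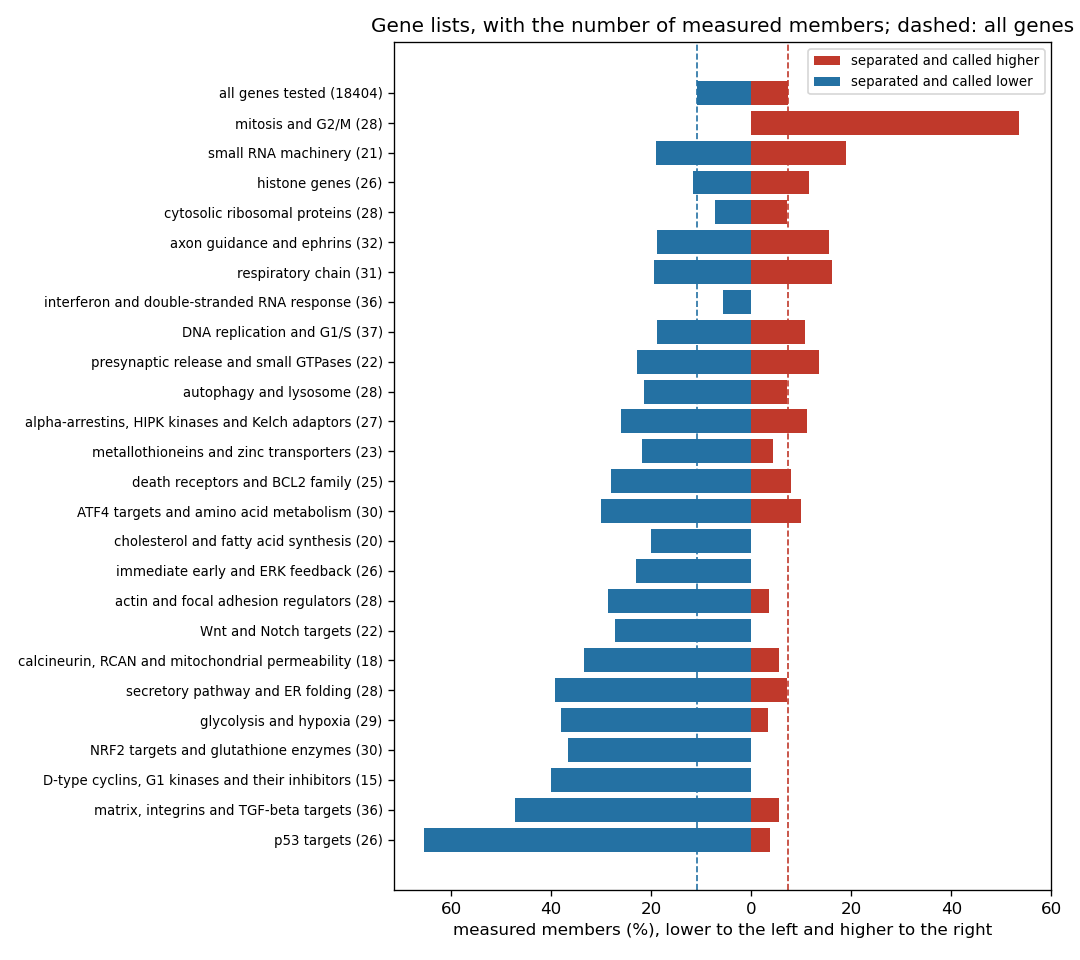
Percent of measured members of each gene list that were separated and called higher (red, to the right) or lower (blue, to the left), with the number measured in parentheses and dashed lines at the shares of all genes, 7.28% and 10.9%. The mitosis list has 15 of 28 members to the right and 0 to the left, and the p53 target list 17 of 26 to the left.

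Genes of cell shape and neurons gave falls and rises. Actin and focal adhesion regulators had 8 falls and 1 rise among 28 measured, with VCL (vinculin, -0.55) and MSN (moesin, -0.87) among the falls, and 1 member, MSN, stayed called with the random block (adjusted p = 0.00744). Axon guidance genes had 5 rises and 6 falls among 32. Beside EPHA7, the Slit receptor ROBO1 rose by 0.45, while the semaphorin co-receptors PLXNA1 and PLXNA2 fell by 0.58 and 0.57. The random block called 2 axon guidance genes higher, and ROBO1, PLXNA1 and PLXNA2 lost their calls (adjusted p = 0.132, 0.0982 and 0.0978). Presynaptic genes had 3 rises and 5 falls among 22. RAB3B, a GTPase of regulated secretion, fell by the same 0.95 with each siRNA, from 7.99 to 8.07 on the control arrays to between 7.02 and 7.15 (SE 0.040, adjusted p = 5.14e-06), and stood at 8.05 and 8.02 with the PAXIP1-AS1 siRNA. UNC13A, a vesicle priming factor, was called higher (1.13) almost wholly through siRNA 2, with a difference of 2.11, against 0.16 with siRNA 1 (adjusted p = 0.209). Among presynaptic genes the random block called RAB3B (adjusted p = 0.000837), with UNC13A not called (0.265). Of the line's own markers PODXL fell by 1.78 with siRNA 1 and 0.24 with siRNA 2, NEFL fell by 0.77 in all and SALL1 rose by 0.33, and of these NEFL stayed called with the random block (adjusted p = 0.0285; 0.19 for PODXL and 0.101 for SALL1).

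Signalling lists also held changes. Wnt and Notch targets had 6 falls and 0 rises among 22, with the Notch target HEY1 at -0.53 and the receptor NOTCH1 at -0.68. With the random block 1 member, LGR5, was called, and HEY1 (adjusted p = 0.187) and NOTCH1 (0.0514) were not. Immediate early genes had 6 falls and 0 rises among 26, with DUSP1 at -0.38, JUN at -0.31, FOS at -0.53 and EGR1 at -0.56. In the random block fit their adjusted p was 0.0516, 0.118, 0.0642 and 0.199. Calcineurin and mitochondrial permeability genes had 6 falls and 1 rise among 18. Beside RCAN3, PPIF, the mitochondrial cyclophilin, fell by 0.67 with siRNA 1 and 2.27 with siRNA 2, and the catalytic subunit PPP3CA by 1.19 and 0.31. RCAN3 alone in this list was called with the random block, with PPIF at an adjusted p of 0.0895 and PPP3CA at 0.102. In the list of alpha-arrestins, HIPK kinases and Kelch adaptors 3 rose and 7 fell of 27. HIPK3, a nuclear kinase, rose by 0.48 with siRNA 1 and 1.91 with siRNA 2, and at 9.42 and 9.48 the PAXIP1-AS1 siRNA arrays lay inside its silenced range of 8.75 to 10.21. With the random block 1 list member, KLHL24, was called, and HIPK3 was not (adjusted p = 0.0962).

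The lists that bear on siRNA delivery changed less or both ways, but all compared cells received a duplex with RNAiMAX. A response to delivery that all arrays share therefore cannot show in this contrast. Of the 36 interferon genes below, 9 reached the median level of all genes, so most had low signal and could hardly be called. Of 36 interferon and double-stranded RNA response genes 0 rose and 2 fell, IFI44L (-0.56) and IFITM2 (-0.52), and IFIT1, MX1 and OAS1 were not called. By limma alone 4 were called higher and 4 lower. In the random block fit the adjusted p was 0.0857 for IFI44L and 0.144 for IFITM2. Of 21 genes of the small RNA machinery 4 rose and 4 fell. TNRC6A, an Argonaute partner in silencing, rose by 0.48 (SE 0.035, adjusted p = 4.51e-05) and stood at 10.31 and 10.35 with the PAXIP1-AS1 siRNA, against 9.95 to 10.02 with the controls. AGO1 fell by 0.36, TNRC6C by 0.46 and the decapping enzyme DCP2 by 0.37, with differences of -0.55, -0.84 and -0.55 for siRNA 1 and -0.18, -0.08 and -0.20 for siRNA 2, TNRC6C not being called with siRNA 2 (adjusted p = 0.266). With the random block 1 list member, TNRC6A, was called (adjusted p = 0.027), and AGO1 (0.125), TNRC6C (0.27) and DCP2 (0.0995) lost their calls.

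Among genes of basic cell functions, cytosolic ribosomal proteins had 2 rises and 2 falls in 28 measured. That is near the share of all genes for rises and below it for falls. Of the 28, 27 reached the median level of all genes, and of all 9450 such genes 1081 rose and 1590 fell, larger shares than in this list. RPS23 fell by 0.57 (adjusted p = 6.47e-05), RPS9 by 0.18, and RPS14 and RPL35 rose by 0.17 and 0.12. RPS9 was 0.16 higher with the mean of all its probe sets in place of the brightest (adjusted p = 0.413), so its direction depends on the probe set. Among the ribosomal proteins RPS23 alone was called with the random block (adjusted p = 0.0127). Histone genes had 3 rises and 3 falls in 26: the linker histone H1-3 fell by 0.91 and the variant MACROH2A2 by 0.54, while H2BC14 rose by 0.82, with 0.20 for siRNA 1 (adjusted p = 0.127) and 1.45 for siRNA 2. Of the histone genes 2, H1-3 and MACROH2A2, were called with the random block (adjusted p = 0.0165 and 0.00664), and H2BC14 lost its call (0.213). Members of these families share sequence and were not checked for shared probes. The respiratory chain had 5 rises and 6 falls in 31. SDHD rose by 0.39 with both siRNAs in near equal measure (0.39 and 0.38), and NDUFB5 by 1.34 with siRNA 1 and 0.23 with siRNA 2. The random block called 1 member, SDHD (adjusted p = 0.0271), and NDUFB5 was not (0.166).

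The separation rule kept genes whose arrays touched and left out genes with larger mean differences. Just inside it lay SNX27, BCL7B and LMBRD1 above the controls and ACSS2, POMGNT1 and PER2 below, each with a gap that rounds to 0.00. BCL7B, 0.08 higher on the mean, was among the 287 separated genes that limma did not call (adjusted p = 0.102). Just outside it lay ZKSCAN8, CCZ1P-OR7E38P and PIGK above and SULF2, TMEM141 and COPS8 below. SULF2, an extracellular sulfatase, differed by -0.78 (adjusted p = 6.81e-06), from -1.49 with siRNA 1 to -0.08 with siRNA 2, and counted among the 2558 genes called by limma whose arrays overlapped.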

How the data were processed

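Total RNA of 10 arrays was labelled as biotinylated cRNA, per the labels' protocols. The authors deposited log2 values, 1 column per array for 32321 probe sets, and the submitters' processing notes name RMA and limma. For versions, array definition and genome build the sources used here give nothing, and signal over background could not be judged from these values. Precision is limited by the number of arrays.

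The platform annotation gave 1 gene symbol for 19158 probe sets, several for 1388 and none for 11775, and the gene IDs of 19128 matched RefSeq (GRCh38.p14). For 637 genes with several probe sets the brightest was used. All 10 arrays were fitted with limma 3.58.1 in R 4.3.3 (lmFit with a mean per group, eBayes, two-sided, Benjamini-Hochberg over 18404 genes, adjusted p under 0.05; 5 residual and 2.87 prior degrees of freedom), and the code was tested on simulated data. The PAXIP1-AS1 siRNA contrast was added after seeing the data.

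The members, gene lists and rules were chosen with earlier results of these data known. Named genes are the 15 widest gaps each way among separated, called genes that reached the median level, LINC02893, up to 4 separated and called members of each list with the smallest p, and the 3 genes just inside and just outside the rule each way. Lists are described by counts and medians without a set test. Alternatives were other normalization, probe set and brightness choices, single control doses, only the compared arrays, a trend with a robust prior, array weights, a 1.5-fold minimum, a replicate block, 2 groups of 4 arrays, the group as a random block, and each array left out.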

Additional observations from a re-analysis of the deposited data

Results flagged for a closer look

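Among the 31 genes checked (the 15 widest gaps each way and LINC02893), 19 differed between siRNA 2 and siRNA 1 by the limma contrast of these arrays. Values are log2 differences of siRNA 2 minus siRNA 1. LINC02893 itself was lower with siRNA 2, by -0.93 (adjusted p = 0.000177). Further from the controls with siRNA 2 were, above them, MIF4GD (0.36), EPHA7 (0.41), PCDH10 (0.23), RAB9A (0.26) and ACAT2 (0.23), and, below them, PXDN (-0.35), RCAN3 (-1.20), GMPR (-0.27), LGR5 (-0.48) and CREB3L2 (-0.27). Further with siRNA 1 were, above, KLHL24 (-0.40) and STARD3NL (-0.59), and, below, CCND2 (1.13), CERK (0.37), CCDC3 (0.21), SPON1 (0.45), TP53INP1 (0.29) and GPR50 (0.51).

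In 3 of the 62 groups of 4 arrays checked, an array stood far from the others by Dixon's criterion. Chance meets it in about 1 of 20 groups of independent values from a single normal distribution. The groups here join 2 siRNAs or 2 control doses, and the genes were mostly chosen for wide gaps, so that rate need not hold. HSD17B10 was 9.81 on control 10 nM replicate 1, against 9.75 to 9.76 on the other control arrays. BCAS2 was 11.25 on siRNA 2 replicate 1, against 11.33 to 11.35 on the other silenced arrays. STARD3NL was 8.62 on control 100 nM replicate 1, against 8.84 to 8.85.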

How the results depend on the processing

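Direction held for all but 1 of the 138 genes that the naming rule picked besides LINC02893: RPS9 was 0.16 higher (adjusted p = 0.413) with the mean of all probe sets. Genes mentioned outside that rule, such as AURKA, BIRC5, LAMC1 and ITGAV, were not followed gene by gene across the settings. LINC02893 stayed called in every setting. Counts depended on how the difference between the siRNAs entered the spread. They were 652 higher and 1096 lower with 2 groups of 4 arrays, and 186 and 457 with the group as a random block. These settings ended the calls of 50 and 73 of these genes, and no other setting run on them ended more than 7 or added more than 3. A 1.5-fold minimum left 100 called higher and 468 lower, and 94 separated above and 410 below. Above the controls lay 2515 genes with the 100 nM control only and 2418 of all 32321 probe sets when each was taken on its own. With a compared array left out, 2519 genes lay above them without siRNA 2 replicate 2, and 1652 to 1951 without any other. Fewer arrays are easier to separate, which holds for each of these omissions alike. The contrast with the PAXIP1-AS1 siRNA called 2315 to 4841 genes with an array left out. Between control doses, 0 genes were called in all settings.

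Deviations of arrays with the same replicate number correlated at 0.29 to 0.53 between groups, but at 0.068 to 0.090 where siRNA 1 was in the pair, so the numbers were not taken to pair the groups, and what they mark is unknown. A replicate block called 3174 higher and 3871 lower and changed none of the 138 calls.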
